A study of Homo sapiens with 12 samples.

Results

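The urokinase system and the matrix metalloproteinases are 2 routes by which carcinoma cells cut the matrix around them, and 9 of their genes were followed here in a pair of kidney carcinoma cell lines. The genes were taken by symbol from the 58302 genes of the deposited tables: PLAU (urokinase) and PLAUR (its receptor), the metalloproteinases MMP1, MMP2, MMP7 and MMP14, and the inhibitors TIMP1, TIMP2 and TIMP3. RNA was sequenced from 769-P and ACHN cells, which the labels give as clear cell renal cell carcinoma (ccRCC) cells, 48 h after transfection with siRNA against NUF2 (siNUF2, a mixture of a pair of siRNAs) or with siRNA-control (siControl). The 4 groups, 769-P siNUF2, 769-P siControl, ACHN siNUF2 and ACHN siControl, held 3 libraries each, and no other allele or agent is named for any of them. The knockdown was transient and partial, and each line stands for 1 tumour only. The labels do not say whether the replicates were separate cultures, so the p-values below measure the spread between these libraries, which may be technical. NUF2 itself, a kinetochore protein needed for chromosome segregation, had 18.3 ± 0.951 FPKM with siControl and 3.68 ± 0.602 FPKM with siNUF2 in the 769-P libraries (mean ± SD, n = 3). The ACHN libraries had 13.8 ± 1.94 and 3.85 ± 1.53 FPKM of NUF2, and the groups did not overlap in either line. FPKM are fragment counts divided by exon length and by library depth, so that levels of different genes can be compared.

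Urokinase is a secreted serine protease that turns plasminogen into plasmin, and its receptor, which is anchored to the membrane by a lipid, holds it at the cell surface. Plasmin cuts fibrin and matrix proteins and can activate several pro-metalloproteinases. MMP14 is a metalloproteinase that stays in the membrane, cuts fibrillar collagen and activates pro-MMP2 in a complex that needs TIMP2, while a higher level of TIMP2 blocks the enzyme. MMP1 is a secreted collagenase, MMP2 a gelatinase, and MMP7 a small metalloproteinase known as matrilysin. TIMP1 is a poor inhibitor of MMP14. TIMP3 differs from the other inhibitors in that it binds to the matrix, and it also inhibits some ADAM proteinases.

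The sequence just upstream of the start was looked up for the members. In the 12 libraries taken as a set, levels of PLAU and PLAUR went together, as described below, and MMP14 followed them less closely than it followed TIMP1. MMP7 and TIMP3 were near 0. RefSeq promoter entries were matched for 6 of the 9 members (GRCh38.p14; PLAU has 2 entries), and MMP1, MMP2 and TIMP2 are named only. Each stretch runs 5′ to 3′ on the strand of the gene and lies outside the exons of GENCODE release 29. Capitals mark TGANTCA (the AP-1 type of site), GGGCGG (the GC box) or TATAAA (the TATA box). The windows are chr10:73911004-73911103 on the forward strand for entry 2 of PLAU, chr19:43670340-43670364 on the reverse strand for PLAUR, chr14:22836457-22836556 on the forward strand for MMP14, chr11:102530754-102530853 on the reverse strand for MMP7 and chr22:32801577-32801676 on the forward strand for TIMP3.
PLAU: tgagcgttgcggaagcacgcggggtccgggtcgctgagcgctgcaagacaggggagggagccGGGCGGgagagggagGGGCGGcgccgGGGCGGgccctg
PLAUR: acaactccaTGAGTCAgggccgagc
MMP14: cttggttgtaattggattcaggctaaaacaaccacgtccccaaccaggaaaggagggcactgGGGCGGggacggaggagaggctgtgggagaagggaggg
MMP7: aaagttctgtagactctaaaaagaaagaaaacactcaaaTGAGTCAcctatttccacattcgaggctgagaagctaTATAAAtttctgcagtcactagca
TIMP3: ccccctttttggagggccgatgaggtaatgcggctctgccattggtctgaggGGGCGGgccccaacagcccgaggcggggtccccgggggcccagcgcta

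Over the 250 bases before each start, both strands were searched. TGANTCA was in the entries of PLAUR (first base at -186 from the start) and MMP7 (-67), against 6.57% of the 35116 entries of the whole table. GGGCGG was in entry 2 of PLAU (-66, -51 and -40), in MMP14 (-66), in TIMP1 (-135 and -45) and in TIMP3 (-166, -158, -131, -76 and -18), against 42.6% of all entries. TATAAA was in MMP7 alone among the members with an entry (-30), against 10.7% of all entries. The motifs do not overlap in these windows, and a match describes the letters only.

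As to the level in unperturbed cells, the members fell into 5 genes with a clear signal in both lines and 4 near the lower end of detection. In 769-P siControl cells the mean levels ran TIMP1 (41.2 FPKM), TIMP2 (40.2 FPKM), PLAU (28.4 FPKM), MMP14 (20.8 FPKM) and PLAUR (1.58 FPKM). TIMP1 and TIMP2 overlapped in their libraries. PLAU lay just above MMP14 (24.6 FPKM in its lowest against 24.3 FPKM in the highest MMP14 library). The step between the means of PLAU and MMP14 was no larger than the range of the libraries of either gene. The steps between means from TIMP2 to PLAU and from MMP14 to PLAUR were larger than the range of the libraries of either gene. In ACHN siControl cells the order was PLAU (169 FPKM), TIMP2 (45.0 FPKM), MMP14 (43.7 FPKM), TIMP1 (29.2 FPKM) and PLAUR (13.0 FPKM). There TIMP2 overlapped MMP14 and MMP14 overlapped TIMP1, and only PLAU at the top and PLAUR at the bottom did not overlap the next gene in the order. MMP1, MMP2, MMP7 and TIMP3 had group means between 0 and 0.583 FPKM in all 4 groups. A level of at least 0.5 FPKM in 3 libraries of a fit was asked for before a gene was tested, so that 5 of the 9 members were tested in every comparison. Fold changes are on the scale of log2(FPKM + 0.1), on which the change of low genes is understated.

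**Figure D1:**
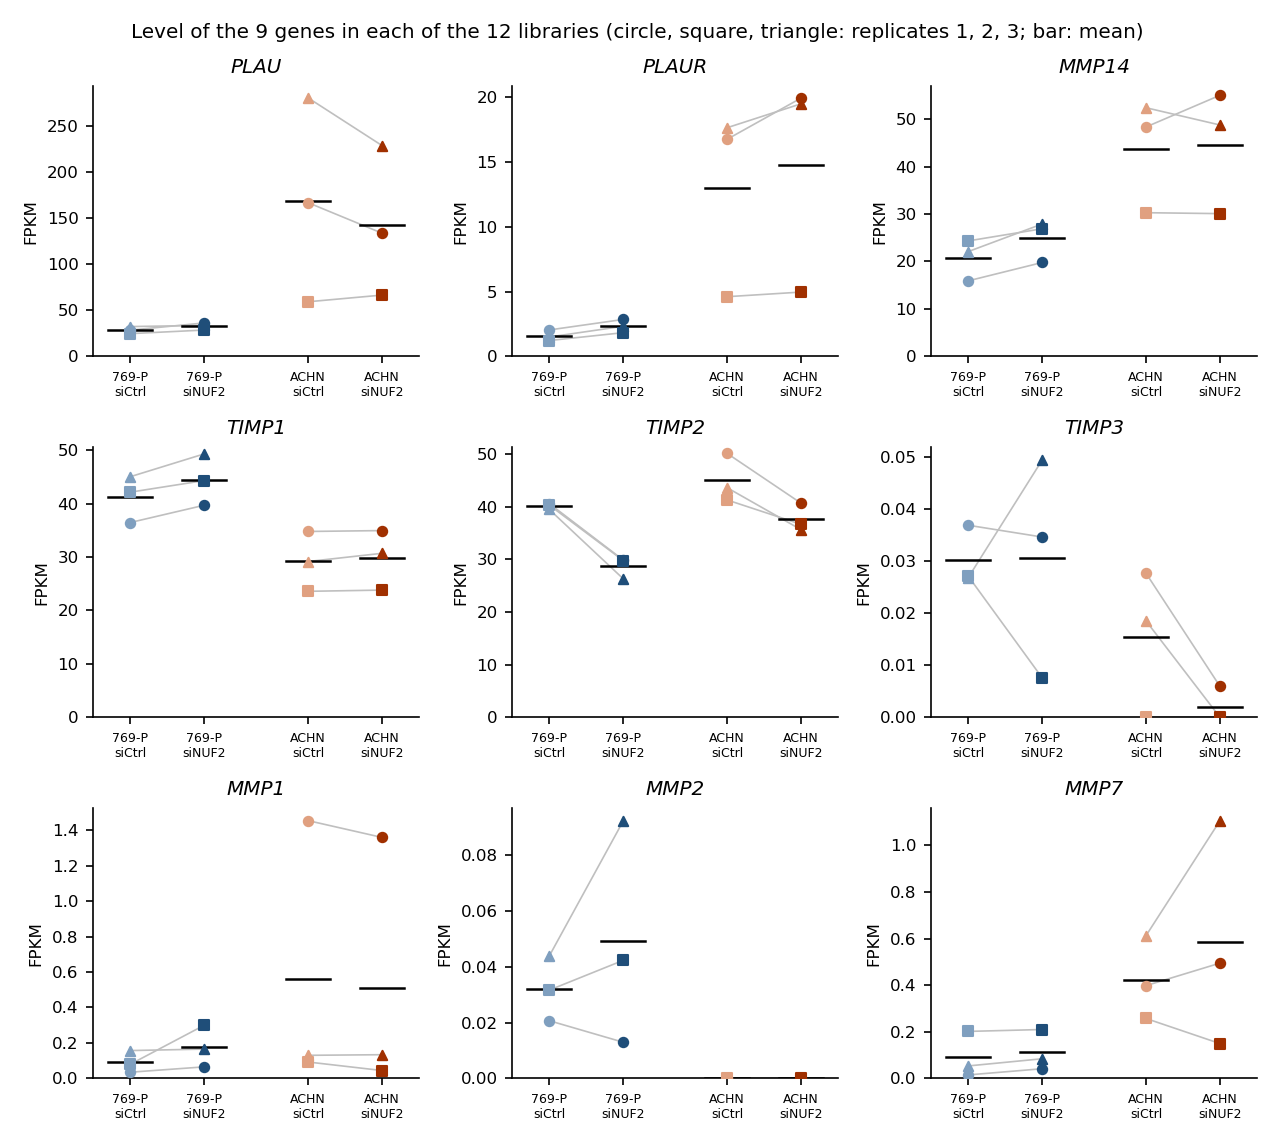
Level (FPKM, linear axis starting at 0) of the 9 genes in the 12 libraries, by group, with a symbol for each replicate number, a grey line between the siControl and siNUF2 libraries of the same number, and a bar at the mean. PLAU and PLAUR are above all 769-P libraries in every ACHN library, TIMP2 is lower with siNUF2 in all 6 same-numbered pairs, and MMP2 is at 0 throughout ACHN.

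A fact of the ACHN libraries bears on most of what follows. PLAU, PLAUR, MMP14 and TIMP1 were each lowest in the libraries numbered 2, with siControl and with siNUF2 alike. The fibroblast markers COL1A1 (3.87 FPKM in siControl replicate 2, against 1.14 and 1.76 FPKM in the others) and PDGFRB (1.17 FPKM against 0.232 and 0.358 FPKM) were highest in the same libraries. Of the 6 fibroblast markers, only COL1A1 and PDGFRB reached a mean of 0.5 FPKM in ACHN cells, and none did so in 769-P cells. The rest of the list did not share their level. COL1A2, COL3A1 and LUM had 0 reads in the ACHN siControl libraries, and DCN was at most 0.0509 FPKM there. The summed level of the 6 ran from 1.40 to 5.08 FPKM in ACHN siControl and from 1.52 to 6.21 FPKM in ACHN siNUF2 libraries. The part of this in the levels of the members was not tested, and fewer cells of a type cannot be told apart from less RNA per cell in such libraries. The 5 endothelial and 6 leukocyte markers were near 0, with summed levels of at most 0.124 and 0.458 FPKM. Of the 11 renal markers 9 were present in each line, among them PAX8 and PAX2, while CA9, which ccRCC usually expresses, was at most 0.121 FPKM in any library. Since same-numbered libraries went together within a line, each comparison was also fitted with a term for the number (the replicate block). Its value is given where it changes the call of a member or of a related gene named here.

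With siNUF2, TIMP2 went down in 769-P cells, and it was the 1 member called there without the replicate block. The gene lies on the reverse strand of chromosome 17 (chr17:78852977-78925387, GRCh38). It had 40.6, 40.3 and 39.5 FPKM in the siControl libraries and 29.9, 29.8 and 26.3 FPKM in the siNUF2 libraries. The groups did not overlap, and the siControl libraries lay close together (40.2 ± 0.576 FPKM against 28.7 ± 2.03 FPKM with siNUF2, mean ± SD, n = 3). TIMP2 fell by 0.48 on the log2 scale (SE 0.073, 95% interval -0.65 to -0.31, limma adjusted p = 0.0136). It was the 1 called among the 5 members tested, where 9.98% of the 14155 genes tested were called in the same comparison. Without siControl replicate 2 the log2 change was still -0.48, but the limma adjusted p was 0.0540. An antisense gene, AC022966.1, shares 367 exon bases with TIMP2, and CEP295NL shares 198. Both were low, with AC022966.1 at 0.269 to 1.07 FPKM over the 12 libraries and CEP295NL at 0.0589 to 0.259 FPKM. No strand setting of the counting is given in the sources used here.

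In ACHN cells TIMP2 had 50.2, 41.3 and 43.7 FPKM in the siControl and 40.7, 36.7 and 35.7 FPKM in the siNUF2 libraries. All siNUF2 libraries were thus below all siControl libraries, and the value was lower in each of the 3 same-numbered pairs (by 0.30, 0.17 and 0.29 on the log2 scale). The log2 difference was -0.24 (SE 0.11, 95% interval -0.51 to 0.03, limma adjusted p = 0.671), and TIMP2 was not called. With the replicate block the SE was 0.045 and the limma adjusted p was 0.0369. TIMP2 was then the 1 member called in ACHN cells, where 12.2% of the 15116 genes tested were called with the block and 0% without it. Without the block 0 genes reached an adjusted p under 0.05 by limma, and 0 by limma-voom on reads recovered from the FPKM, while 1238 had an unadjusted p under 0.05 by limma. Even NUF2, the target of the siRNA, was missed by that fit. Its log2 change in ACHN cells was -1.87 (limma adjusted p = 0.224 without and 0.0122 with the block). A gene not called in ACHN cells without the block is therefore not shown to be unchanged. The difference between the lines in the response of TIMP2 was 0.25 (ACHN minus 769-P, SE 0.13) and was not called (limma adjusted p = 1.00 without and 0.104 with the block).

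TIMP1, on the X chromosome (chrX:47582313-47586789, forward strand), had 36.5, 42.1 and 45.0 FPKM in 769-P siControl and 39.7, 44.3 and 49.3 FPKM in 769-P siNUF2 libraries. It was higher with siNUF2 in all 3 same-numbered pairs, but the groups overlapped, and the log2 difference of 0.12 was not called (SE 0.11, limma adjusted p = 0.520). The ACHN libraries had 34.8, 23.6 and 29.2 FPKM with siControl and 35.0, 23.8 and 30.7 FPKM with siNUF2. Here the numbers of the libraries set the order and the siRNA hardly moved it. The log2 difference in ACHN cells was 0.05 (95% interval -0.06 to 0.16 with the block, limma adjusted p = 0.480).

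TIMP3 was near 0. The gene (chr22:32801701-32863043, forward strand) had 5, 4 and 4 reads in the 769-P siControl and 5, 1 and 7 reads in the 769-P siNUF2 libraries, as recovered from the FPKM. ACHN libraries had 4, 0 and 3 reads with siControl and 1, 0 and 0 reads with siNUF2. At this depth no difference in TIMP3 was detectable. TIMP4, the remaining gene of the inhibitor family and named here after its values were seen, had 0 reads in all 6 libraries of 769-P cells, which allows up to 3 in each. In ACHN cells TIMP4 was low but above the filter, at 1.27 to 1.49 FPKM with siControl and 1.38 to 1.67 FPKM with siNUF2, with overlapping groups, and was not called.

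The urokinase receptor PLAUR (chr19:43646095-43670547, reverse strand) went up in 769-P cells in the fit that takes the replicate numbers into account. It had 2.03, 1.22 and 1.49 FPKM in the siControl and 2.85, 1.82 and 2.32 FPKM in the siNUF2 libraries. The groups overlapped, while each siNUF2 library was above the siControl library of its own number by 0.47, 0.55 and 0.61 on the log2 scale. The log2 difference was 0.55 (SE 0.23, 95% interval 0.01 to 1.09, limma adjusted p = 0.174), and with the block it had an SE of 0.082 and was called (limma adjusted p = 0.0122). In ACHN cells PLAUR had 16.7, 4.60 and 17.6 FPKM with siControl and 19.9, 4.96 and 19.5 FPKM with siNUF2. All 3 pairs were again higher with siNUF2, by 0.25, 0.11 and 0.14 on the log2 scale. The log2 difference of 0.18 was not called in ACHN cells (limma adjusted p = 0.994 without and 0.0904 with the block).

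PLAU (chr10:73909177-73917497, forward strand) had 28.4, 24.6 and 32.3 FPKM in 769-P siControl and 36.2, 28.5 and 33.5 FPKM in 769-P siNUF2 libraries. It was higher with siNUF2 in each of the 3 pairs, with overlapping groups. The log2 difference of 0.21 was not called (SE 0.13, limma adjusted p = 0.333 without and 0.0658 with the block). ACHN libraries had 167, 59.2 and 281 FPKM with siControl and 134, 66.4 and 229 FPKM with siNUF2. Within ACHN cells the libraries ranged over 4.74-fold, far more than either siRNA group differed from the other, and 2 of 3 pairs were lower with siNUF2. The log2 difference there was -0.13 (95% interval -1.78 to 1.51 without and -0.39 to 0.13 with the block), with limma adjusted p = 0.997 and 0.434. The antisense gene C10orf55 shares 916 exon bases with PLAU and had 0.168 to 0.916 FPKM over the 12 libraries.

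Among the metalloproteinases only MMP14 (chr14:22836557-22849027, forward strand) was tested. It had 15.9, 24.3 and 22.1 FPKM in 769-P siControl and 19.8, 26.9 and 27.9 FPKM in 769-P siNUF2 libraries. All 3 pairs were higher with siNUF2, by 0.31, 0.14 and 0.34 on the log2 scale, and the groups overlapped. The log2 difference was 0.27 (SE 0.19, limma adjusted p = 0.389), and it was called with the block (SE 0.056, limma adjusted p = 0.0252). With the block, then, 3 of the 5 tested members were called in 769-P cells, PLAUR and MMP14 as higher and TIMP2 as lower, against 27.5% of all genes tested (13.6% as higher and 13.9% as lower). In ACHN cells MMP14 had 48.3, 30.3 and 52.4 FPKM with siControl and 55.0, 30.1 and 48.8 FPKM with siNUF2. There 1 pair was higher and 2 were lower, and the log2 difference was 0.04 (95% interval -0.13 to 0.22 with the block, limma adjusted p = 0.714).

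**Figure D2:**
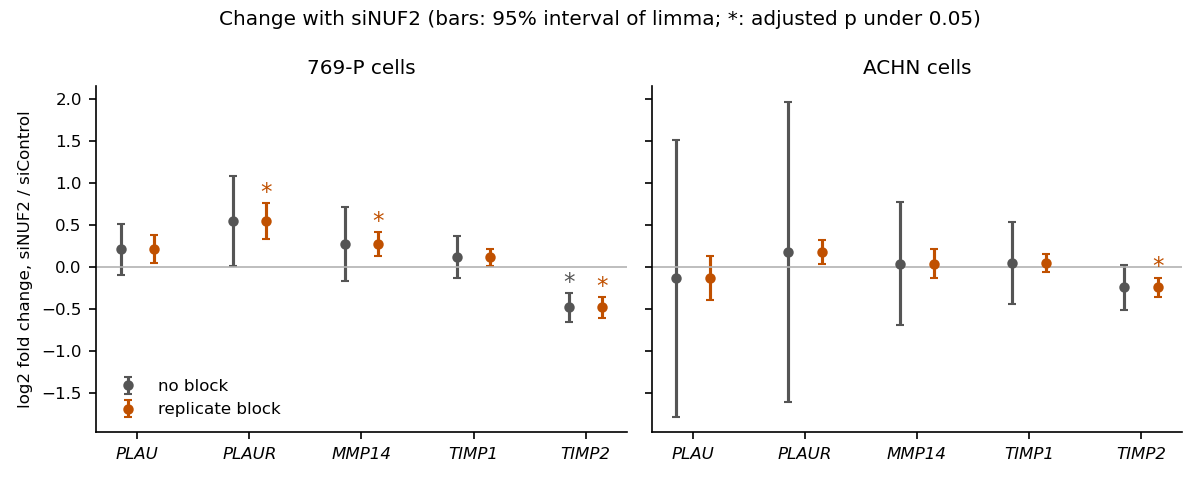
Log2 fold change of siNUF2 over siControl (y axis) for the 5 members tested, in 769-P (left) and ACHN cells (right), without (grey) and with (orange) the replicate block; points are estimates of limma, bars are 95% intervals and asterisks mark an adjusted p under 0.05. TIMP2 is below 0 in both lines (-0.48 and -0.24), and the intervals of PLAU and PLAUR in ACHN cells are the widest without the block.

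MMP1 (chr11:102789920-102798160, reverse strand) was carried by the libraries of 1 number. The ACHN libraries numbered 1 had 90 reads with siControl and 98 with siNUF2, whereas those numbered 2 and 3 had 7 and 9 reads with siControl and 3 and 9 with siNUF2. In 769-P cells MMP1 had 2, 5 and 10 reads with siControl and 4, 17 and 10 with siNUF2. The highest level of MMP1 in any library was 1.46 FPKM.

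MMP7 (chr11:102520508-102530753, reverse strand) had 29, 23 and 50 reads in ACHN siControl and 42, 12 and 88 reads in ACHN siNUF2 libraries. Reads in 769-P cells were 1, 15 and 4 with siControl and 3, 14 and 6 with siNUF2. The siRNA groups overlapped in both lines, and ACHN libraries lay above 769-P libraries save for an overlap at 0.149 to 0.209 FPKM. MMP2 (chr16:55389700-55506691, forward strand) had 3, 5 and 7 reads in 769-P siControl and 2, 6 and 14 in 769-P siNUF2 libraries. It had 0 reads in all 6 ACHN libraries, which allows up to 3 reads in each. The mean of MMP2 in 769-P siControl libraries was 1.83-fold above this floor in ACHN siControl libraries. Counting error of the 3, 5 and 7 reads in 769-P cells is not allowed for, so the value is not a lower bound on the difference. The substrate of MMP14, pro-MMP2, was therefore represented by a few reads in 769-P cells and was not detected in ACHN cells at this depth.

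Between the lines the differences of PLAUR, PLAU, MMP14 and TIMP1 were larger in size than those with siNUF2 in either line, and that of TIMP2 was smaller. Under siControl, 4 of the 5 members tested were called between 769-P and ACHN cells, where 61.5% of the 15376 genes tested were called. The same 4 were called with the block, where 59.5% of all genes were. Same-numbered libraries did not go together between the lines (correlations of -0.0586, -0.0150 and 0.0401), so the blocked fit adds no support here. PLAUR was lower in 769-P than in ACHN cells by a log2 difference of -2.73 (SE 0.52, limma adjusted p = 0.00351) and PLAU by -2.27 (SE 0.52, limma adjusted p = 0.00804). The lowest ACHN library of the 6 had 59.2 FPKM of PLAU and 4.60 FPKM of PLAUR, against highest values of 36.2 and 2.85 FPKM among the 769-P libraries. MMP14 was also lower in 769-P cells (log2 difference -1.01, SE 0.25, limma adjusted p = 0.0104), with 30.1 FPKM at the lowest in ACHN and 27.9 FPKM at the highest in 769-P libraries. TIMP1 went the other way and was higher in 769-P cells (log2 difference 0.55, SE 0.16, limma adjusted p = 0.0212). Its call was lost without 769-P siControl replicate 2 (limma adjusted p = 0.0719), without 769-P siControl replicate 3 (0.0759) or without ACHN siControl replicate 3 (0.0541). TIMP2 was not called between the lines (log2 difference -0.12, 95% interval -0.35 to 0.11, limma adjusted p = 0.303). Each line was grown in its own medium, so line and medium cannot be told apart here.

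Whether siNUF2 acted differently on the members in the lines was tested as the difference of the log2 changes, ACHN minus 769-P. The value was -0.36 for PLAUR, -0.34 for PLAU, -0.23 for MMP14, -0.06 for TIMP1 and 0.25 for TIMP2. None of the 5 was called by limma, whether without the block, where 0% of the 16564 genes tested were called (0 genes, with 776 at an unadjusted p under 0.05; limma-voom without the block called 0), or with it, where 1.52% were. The lowest limma adjusted p among the members was 0.0792, for PLAUR with the block.

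The RNA level of MMP14 was set against that of its inhibitor TIMP2 within each library, a ratio chosen after the values had been seen. MMP14 over TIMP2 was 0.392, 0.603 and 0.559 in 769-P siControl and 0.662, 0.903 and 1.06 in 769-P siNUF2 libraries. The ratio of their FPKM thus did not overlap between the groups (exact permutation p = 0.1, two-sided, the smallest that 3 against 3 libraries can give). TIMP2 alone already separated these groups, and the ratio was picked from the same libraries, so this p-value adds no support. In ACHN cells the ratio was 0.963, 0.733 and 1.201 with siControl and 1.35, 0.820 and 1.37 with siNUF2, higher in each pair but with overlapping groups (exact permutation p = 0.5).

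Around urokinase, SERPINE2 and MRC2 were higher and VLDLR was lower with siNUF2 in 769-P cells. Of 16 other plasminogen activation genes 11 were tested in 769-P cells, and 2 were called as higher and 1 as lower, where 9.98% of all genes tested were called, with a median log2 change of -0.26 against -0.01 over all genes tested. SERPINE2, which codes for an inhibitor of urokinase and thrombin, had 16.3, 15.7 and 13.4 FPKM with siControl and 24.4, 20.9 and 20.1 FPKM with siNUF2, with no overlap, and rose by 0.53 (limma adjusted p = 0.0314) and MRC2, a collagen receptor that binds the urokinase receptor, by 0.57 (limma adjusted p = 0.0112). VLDLR, a receptor that takes up protease and inhibitor complexes, fell by 0.57 on the log2 scale (limma adjusted p = 0.0268). The calls of SERPINE2 and VLDLR were each lost in 5 of the 6 fits that left out 1 library, and that of MRC2 in none. With the block 3 of the 11 were called as higher and 5 as lower, against 13.6% and 13.9% of all genes tested. The further gene called as higher was LRP1, an endocytic receptor that takes up urokinase bound to its inhibitors (log2 change 0.48, limma adjusted p = 0.0169). Among those called as lower were S100A10 (log2 change -0.37, limma adjusted p = 0.0227) and ENO1 (-0.16, 0.0426), both plasminogen-binding proteins at the cell surface. SERPINF2, the gene of the plasmin inhibitor, changed by -1.08 (0.0102) and SERPINA5, a further serpin of this system, by -0.65 (0.00791) in that fit.

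In ACHN cells none of the 11 plasminogen activation genes tested was called without the block, with a median log2 change of -0.15 against 0.01 over all genes tested. With the block 2 were called, both lower, where 12.2% of all genes tested were called in either direction. PLAT, the tissue plasminogen activator, had 8.65, 1.53 and 8.01 FPKM with siControl and 5.17, 1.196 and 4.42 FPKM with siNUF2 (log2 change -0.62, limma adjusted p = 0.0331 with the block). S100A10 changed by -0.36 (limma adjusted p = 0.0158 with the block).

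Of the 19 other metalloproteinases, 769-P cells had 3 tested and ACHN cells 6. MMP9 was at most 0.438 FPKM in any library. MMP24, a metalloproteinase of the membrane type as is MMP14, had 1.94, 2.28 and 1.67 FPKM in 769-P siControl and 3.57, 3.54 and 4.52 FPKM in 769-P siNUF2 libraries and rose by 0.96 on the log2 scale (limma adjusted p = 0.0142). It was the 1 called of the 3, where 9.98% of all genes tested were called, and it was lost without siNUF2 replicate 3 (limma adjusted p = 0.0522). In ACHN cells MMP24 had 1.94, 8.68 and 2.33 FPKM with siControl and 5.40, 14.3 and 7.45 FPKM with siNUF2, and was called with the block (log2 change 1.28, limma adjusted p = 0.0229). There 12.2% of all genes tested were called with the block, and MMP24 was the 1 called of the 6. Of these 6 genes 2 had a positive and 4 a negative log2 change in ACHN cells. Their median was -0.39 against 0.01 over all genes tested. MMP15, the highest-expressed of the others beside MMP24, had 1.91 to 2.59 FPKM in 769-P and 3.93 to 10.8 FPKM in ACHN libraries and was not called in either line.

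Of 10 further regulators, 8 were tested in 769-P cells and 1 was called, where 9.98% of all genes tested were called. PCSK5, a proprotein convertase, fell by 0.54 on the log2 scale (limma adjusted p = 0.0158), from 14.8, 16.7 and 18.4 to 11.1, 11.6 and 11.2 FPKM, a call lost in 2 of the 6 fits without 1 library. With the block 3 were called as higher in 769-P cells, namely SPOCK1 (log2 change 0.47, limma adjusted p = 0.00508), TFPI2 (0.50, 0.0213) and CLDN1 (0.30, 0.0141), and FURIN, the convertase that activates pro-MMP14, was called as lower beside PCSK5 (-0.25, limma adjusted p = 0.0283). In that fit 13.6% of all genes tested were called as higher and 13.9% as lower. BSG, an inducer of metalloproteinases, had 156 to 255 FPKM over the 12 libraries and was not called in either line. It was the highest of this list in 769-P cells, whereas in ACHN cells CLDN1, a tight junction protein, had a higher mean (388 FPKM with siControl and 349 FPKM with siNUF2). None of the 7 tested in ACHN cells was called with or without the block.

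ADAM and ADAMTS proteinases, some of which TIMP3 can inhibit, had 12 of 30 genes tested in 769-P cells, with 2 called as higher and 1 as lower. Of all genes tested there, 9.98% were called. ADAM15 had 7.52, 7.62 and 5.35 FPKM with siControl and 16.2, 16.7 and 15.7 FPKM with siNUF2, with no overlap, and rose by 1.26 on the log2 scale (limma adjusted p = 0.00599). ADAM12 rose by 1.19 (limma adjusted p = 0.0192) and ADAMTS1 fell by 0.72 on the log2 scale (limma adjusted p = 0.0324), though leaving out 1 library ended the call in 4 and 5 of 6 fits. With the block 3 of the 12 were called as higher and 4 as lower in 769-P cells, against 13.6% and 13.9% of all genes tested. The genes added were ADAMTS7 (log2 change 0.47, limma adjusted p = 0.0108) as higher and ADAMTS15 (-1.23, 0.00993), ADAMTS9 (-0.29, 0.0258) and ADAM9 (-0.24, 0.0275) as lower. In ACHN cells 16 were tested and none was called without the block. With the block ADAM15 was called as higher (log2 change 0.87, limma adjusted p = 0.0116), from 10.01, 8.57 and 11.3 to 19.3, 14.7 and 20.1 FPKM, and ADAM8 (log2 change -0.54, limma adjusted p = 0.0373), ADAM9 (-0.21, 0.0497) and ADAMTS1 (-0.39, 0.0494) as lower. Of the related genes, ADAM15 and MMP24 were thus called as higher in both lines with the block, and ADAM9, ADAMTS1 and S100A10 as lower in both, as TIMP2 was. The blocked fits called 12.2% of all genes tested for ACHN, against 27.5% for 769-P, in either direction. Some overlap can therefore arise from these shares alone. How many of all genes tested were called alike in both lines was not counted, so an excess among the related genes was not tested.

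**Figure D3:**
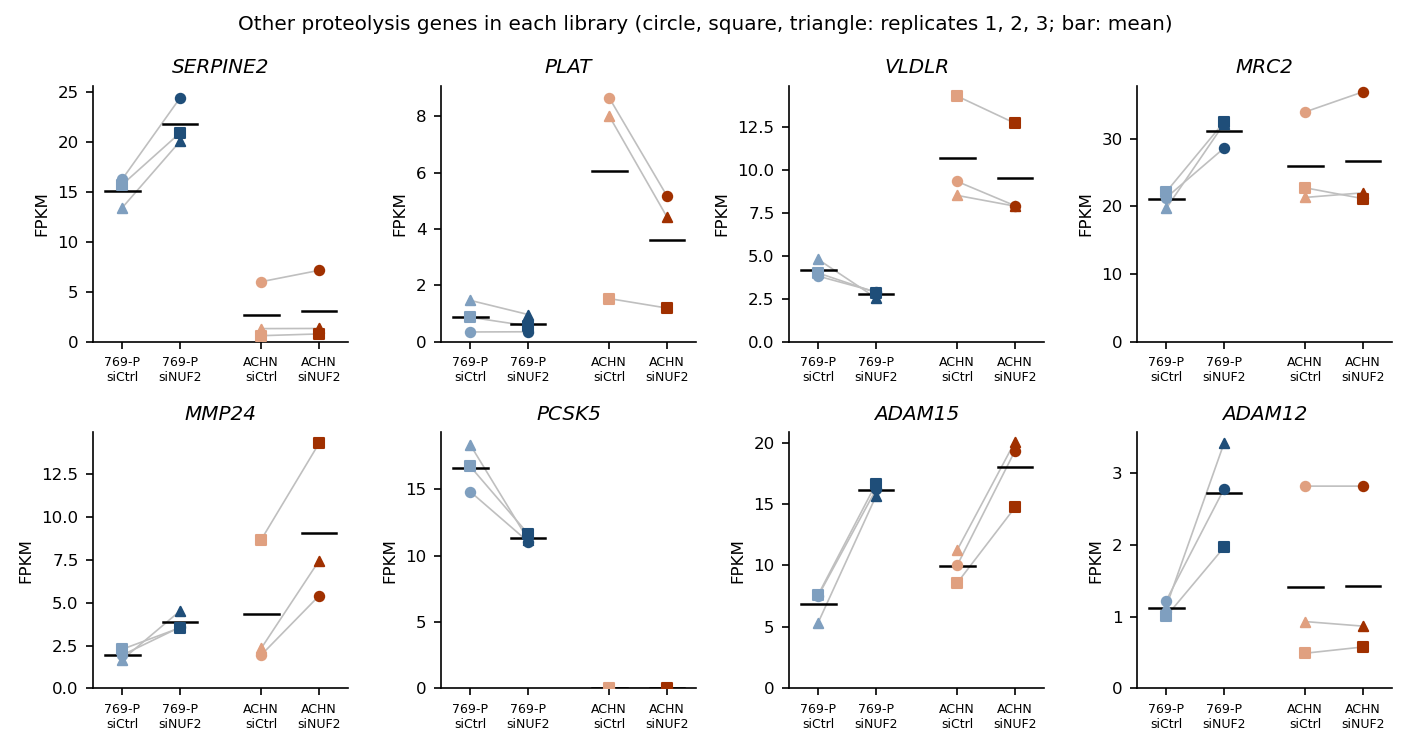
Level (FPKM, linear axis starting at 0) of 8 related genes in the 12 libraries, by group, with a symbol for each replicate number, grey lines between same-numbered libraries and a bar at the mean. SERPINE2, MRC2, MMP24, ADAM15 and ADAM12 are higher and VLDLR and PCSK5 lower with siNUF2 in all 769-P libraries, and only ADAM15 of the 8 separates the siRNA groups in ACHN libraries.

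The members were also compared by how their levels varied from library to library, as Pearson's r over the 12 libraries of log2 levels centred within each line, a description in which the siRNA and the replicate number are shared by all genes. PLAU and PLAUR had an r of 0.88 and MMP14 and TIMP1 an r of 0.90. MMP14 had an r of 0.68 with PLAU and of 0.68 with PLAUR, and TIMP1 had 0.60 and 0.71 with them. These r pool the lines, and PLAU ranged over 4.74-fold in ACHN but 1.47-fold in 769-P libraries. In 769-P cells PLAU and PLAUR were lowest in the libraries numbered 2 with either siRNA, but MMP14 and TIMP1 in those numbered 1. A link of MMP14 or TIMP1 with PLAU or PLAUR is therefore not shown for 769-P cells, and r within each line was not computed. TIMP2 had r between -0.17 and 0.01 with the other members over the 12 libraries. In 769-P cells, though, TIMP2 was lower and PLAUR higher with siNUF2 in all 3 same-numbered pairs. The pooled r therefore does not show that TIMP2 varied independently of the other members within a line. Of the 12930 genes compared, those most like PLAU were AIDA and ETS1 (r of 0.98 for both), those most like PLAUR were CD59 and ARNTL2 (both 0.99), and those most like MMP14 were HLX and CLK1 (both 0.96). GPAT4 (0.98) and STARD10 (0.97) were closest to TIMP1, and ELF4 and SLC45A4 (both 0.97) to TIMP2.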

How the data were processed

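Total RNA of 12 libraries (2 lines, 2 siRNAs, 3 replicates each) was sequenced on an Illumina NovaSeq and filtered with fastp by the authors. HISAT2 2.0.5, featureCounts 1.5.0-p3 and hg38 are named in the submitters' processing notes. The values deposited by the authors are FPKM per gene and library, and the columns of names and positions beside them were used for identity only. The strand setting is not given in the sources used here. With exon lengths of GENCODE release 29, 95.2% of the FPKM above 0 were whole reads (tolerance 0.05), for 34627 of 36305 genes above 0 (all 9 members among them). These reads summed to between 26368027 and 34582313 per library. Floors and intervals on reads cover counting error only.

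FPKM were scaled by a trimmed mean of log ratios (30% and 5% trimmed) within each fit, and log2(FPKM + 0.1) of genes with at least 0.5 scaled FPKM in at least 3 libraries was fitted with limma 3.58.1 (lmFit, eBayes with trend; R 4.3.3), each line alone, the lines under siControl, or all 12 libraries for the difference in response. p-values were adjusted by Benjamini-Hochberg over all genes tested and called under 0.05. A test on counts was not used for the main fits because the files hold FPKM. Scripts were tested on simulated data. Python 3.11.15 (pandas 2.3.3, NumPy 2.4.6, matplotlib 3.10.9, SciPy 1.17.1) served for the rest.

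The replicate numbers come from the labels. Deviations of same-numbered siNUF2 and siControl libraries from their group means correlated at 0.352, 0.276 and 0.184 in 769-P and at 0.650, 0.737 and 0.461 in ACHN cells, so the numbers were taken to pair libraries within a line. Between the lines the correlations were -0.0586, -0.0150 and 0.0401. 1 related gene is not reported here and was left out of the lists. The members and the lists were chosen with earlier results of these data known. Named were all members, NUF2, the 2 highest genes of each further list, and up to 6 of its called genes per line by size of change, from those past the threshold with or without the block. Alternatives were pseudocounts of 1 and 0.01, no filter or a filter of 1 FPKM, median-ratio scaling, FPKM as deposited, the replicate block, all 12 libraries in 1 fit and each library left out. limma-voom on recovered reads and leaving out both ACHN libraries of a number were chosen after seeing the data.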

Additional observations from a re-analysis of the deposited data

Results flagged for a closer look

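For 3 related genes the response to siNUF2 differed between the lines in the fit with the replicate block (limma, Benjamini-Hochberg over 16564 genes), though for none of them without it. With the block 1.52% of all genes tested were called. LRP1, the endocytic receptor described above, differed by -0.63 on the log2 scale (ACHN minus 769-P, adjusted p = 0.0449 by limma), with a change of 0.48 in 769-P and of -0.15 in ACHN cells. ADAM12 differed by -1.13 (limma adjusted p = 0.0467), with 1.19 in 769-P and 0.05 in ACHN cells. ADAMTS7 differed by -0.79 (limma adjusted p = 0.0464), with 0.47 in 769-P and -0.32 in ACHN cells. What sets the lines apart in these genes was not tested.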

How the results depend on the processing

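In 769-P cells 1412 genes were called, 3898 with the replicate block, 635 with no filter on low values, 700 with all 12 libraries in 1 fit, and 4827 by limma-voom on recovered reads with the block. Leaving out 1 library gave 357 to 1144, and 5 of the 6 libraries (all but siControl replicate 1) moved the count by over 1.5 times. In ACHN cells the 0 called became 1843 with the block, 171 with all 12 libraries and 3291 by limma-voom with the block, and stayed 0 (0 to 0) without any 1 library. The difference between the lines had 0 called, 2 with a pseudocount of 0.01, 15 with no filter, 252 with the block, 967 by limma-voom with the block, and 0 to 1 without 1 library (the 1 without 769-P siNUF2 replicate 2). The causes were not tested.

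Beside the changes given above, the block changed no call of a member. TIMP2 in 769-P cells kept its direction and call under all other settings than the 1 library named above (log2 change -0.51 to -0.42 with 1 library left out). With limma-voom and the block, PLAU in 769-P (limma adjusted p = 0.0170) and PLAUR in ACHN cells (0.0389) were called as higher too. Some differences that were not called changed sign with 1 library left out, while the other uncalled differences of members, those in 769-P cells included, kept theirs. In ACHN cells the log2 change of PLAU ran from -0.75 to 0.37, of PLAUR from -0.44 to 0.84, of MMP14 from -0.200 to 0.306, of TIMP1 from -0.0926 to 0.205 and of PLAT from -1.41 to 0.0217. Without both ACHN libraries numbered 1 the value of MMP14 was -0.0431. The difference between the lines ran from -0.98 to 0.14 for PLAU, -1.0 to 0.283 for PLAUR, -0.484 to 0.0209 for MMP14 and -0.222 to 0.0758 for TIMP1. Of the related genes called in 769-P cells without the block, ADAM15 and MRC2 were called without any 1 library. Under the other settings ADAM15 and PCSK5 were called throughout, while MRC2 was lost in 1 (limma adjusted p = 0.194). MMP24 and ADAMTS1 were also lost in 1 other setting each, and ADAM12, SERPINE2 and VLDLR in 2 each. The highest limma adjusted p among these was 0.821, for SERPINE2. ADAM12 was lost without siNUF2 replicate 1 or 3 or siControl replicate 2 or 3 (limma adjusted p of 0.0536 to 0.0658), PCSK5 without siNUF2 replicate 3 or siControl replicate 2 (0.0636 and 0.0598), and SERPINE2, VLDLR and ADAMTS1 without any 1 but siControl replicate 1 (0.0548 to 0.110). Depth limits MMP1, MMP2, MMP7 and TIMP3, which had at most 98 reads in a library, and the spread between replicates limits the others.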
